A study of Mus musculus with 12 samples.

Results

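Genes of mitochondrial quality control, 10 in all, were followed across cultures of mouse primary midbrain astrocytes: the kinase gene Pink1, the mitophagy receptor genes Bnip3, Bnip3l, Fundc1 and Bcl2l13, the fusion genes Mfn1, Mfn2 and Opa1, and the fission genes Dnm1l and Fis1. They were chosen by gene name from the 32742 genes of the deposited table, and all 10 passed the filter on low counts that left 21129 genes for testing. RNA had been sequenced from 12 samples of wild-type (WT) or Arrb2 knockout (KO) astrocytes, 3 per group, which received PBS or the complex I inhibitor MPP+ at 500 µM for 24 h. The 4 groups are thus WT with PBS, WT with MPP+, KO with PBS and KO with MPP+. All are labelled Day 14 and come from midbrain of mice at postnatal days 0 to 3, grown as mixed glia and shaken to remove other cell types. Arrb2 encodes beta-arrestin 2, a scaffold of G protein-coupled receptor signalling. The labels state neither the deleted part of Arrb2 nor whether replicates came from separate litters or cultures, so p-values measure the spread between these samples, which may be technical.

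Mitophagy is the removal of damaged mitochondria by autophagy. In its ubiquitin arm the kinase Pink1 accumulates on depolarised mitochondria and phosphorylates ubiquitin on their surface, where ubiquitin chains are read by autophagy adaptors. In its receptor arm, proteins anchored in the outer membrane, among them Bnip3, Bnip3l, Fundc1 and Bcl2l13, bind the autophagosome directly. Fusion joins outer membranes through Mfn1 and Mfn2 and inner membranes through Opa1, while fission is carried out by the dynamin-like GTPase Dnm1l, which adaptors in the outer membrane recruit. In astrocytes these processes set the shape and turnover of the mitochondrial network.

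Total counts ran from 64249029 to 69865569 per library. Arrb2 itself was read in all groups, at 21.7 to 31.0 CPM (counts scaled to library size) in WT with PBS and 13.8 to 16.1 in KO with PBS, and at 17.2 to 24.2 in WT with MPP+ and 12.1 to 15.1 in KO with MPP+. The genotypes did not overlap in either treatment, and Arrb2 was lower in KO by a log2 fold change of -0.83 ± 0.16 in PBS (adjusted p = 0.0084) and -0.57 ± 0.16 in MPP+ (adjusted p = 0.0363). The summed RNA of 4 Y-linked genes was at most 0.230 CPM in every WT library, 39.4 and 43.1 CPM in the KO libraries numbered 1, and 127 to 131 CPM in the other 4 KO libraries. Xist RNA was read in every library, at 787 to 1415 CPM in WT and 393 to 913 in KO. Sex and genotype thus cannot be told apart. Of the 13 astrocyte markers, 10 fell with MPP+ in each genotype, where 28.4% of all genes in WT and 24.7% in KO fell, and their summed level was 6118 to 6994 CPM in WT with PBS, 1942 to 2558 in WT with MPP+, 4498 to 5720 in KO with PBS and 1756 to 2065 in KO with MPP+, with none at 0. Markers of some other cell types fell too. Of 6 tested pericyte and smooth muscle markers, 5 fell and 1 rose in each genotype, with sums of 3744 to 4091 CPM in WT with PBS, 669 to 877 in WT with MPP+, 3698 to 5393 in KO with PBS and 835 to 961 in KO with MPP+, and with Kcnj8 at 0 in MPP+ libraries. Of 11 microglia and macrophage markers, 9 fell in WT and 5 in KO and 1 rose in each, with sums of 936 to 1348 and 547 to 688 CPM in WT and 705 to 966 and 387 to 550.3 in KO. Oligodendrocyte lineage sums went from between 515 and 534 to between 142 and 160 CPM in WT and from between 547 and 594 to between 180.3 and 210.3 in KO, with 4 of 9 tested markers falling in each and Mog at 0 outside WT with PBS. Neuron sums went from between 460.4 and 574 to between 223 and 245 CPM in WT and from between 518 and 624 to between 267 and 298 in KO, with 5 of 7 tested markers falling in WT and 4 in KO, Dcx at 0 in MPP+ libraries and Slc17a6 at 0 outside WT with PBS, and Th at 0 in KO with PBS. Of 7 fibroblast and meninges markers, 1 rose and 2 fell in WT, and 1 rose and 0 fell in KO. Their sums were 657 to 1430 CPM with PBS and 872 to 1260 with MPP+ in WT. In KO they were 1567 to 1883 with PBS and 1698 to 2213 with MPP+. Of 4 tested endothelium markers, 1 fell and 0 rose in each genotype. Of 4 tested ependyma and choroid plexus markers, 3 fell and 1 rose in WT, and 1 fell and 1 rose in KO. Mitochondrial ribosomal RNA took 0.0539% to 0.0805% of counts in PBS and 4.64% to 9.07% in MPP+. All genes of the mitochondrial genome, ribosomal RNA included, took 5.43% to 7.40% in PBS and 5.82% to 10.9% in MPP+. The part of these shifts in the results that follow was not tested. In bulk RNA, fewer cells of a type and less RNA per cell cannot be told apart. Within its group, WT with MPP+ replicate 1 had the lowest median correlation with its replicates of all 12 libraries (0.971).

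The promoters of 3 genes are shown because their genes stand for the main patterns: Bnip3, whose level differed between genotypes in MPP+, Opa1, which rose with MPP+, and Fis1, which fell most. Each line gives the 250 bases before the transcript start from RefSeq (build GRCm38.p6), at chr7:138909507-138909756 on the minus strand for Bnip3, chr16:29579084-29579333 on the plus strand for Opa1 and chr5:136953025-136953274 on the plus strand for Fis1. Capitals mark matches, on either strand, of the motifs searched.
Bnip3: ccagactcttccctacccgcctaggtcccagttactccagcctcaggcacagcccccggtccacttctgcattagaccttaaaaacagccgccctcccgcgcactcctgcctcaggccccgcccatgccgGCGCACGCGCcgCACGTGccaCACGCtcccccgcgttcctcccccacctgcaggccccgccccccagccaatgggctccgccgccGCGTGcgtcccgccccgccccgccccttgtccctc
Opa1: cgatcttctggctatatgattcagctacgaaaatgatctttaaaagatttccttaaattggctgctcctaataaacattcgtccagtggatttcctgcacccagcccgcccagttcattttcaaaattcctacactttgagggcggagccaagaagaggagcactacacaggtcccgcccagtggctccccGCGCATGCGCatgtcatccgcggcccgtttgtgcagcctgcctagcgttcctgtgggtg
Fis1: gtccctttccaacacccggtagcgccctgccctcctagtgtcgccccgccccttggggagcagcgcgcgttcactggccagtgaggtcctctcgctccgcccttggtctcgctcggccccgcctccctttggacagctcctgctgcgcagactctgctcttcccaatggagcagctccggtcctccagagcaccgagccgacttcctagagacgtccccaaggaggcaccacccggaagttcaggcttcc

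The motifs were the hypoxia response core (ACGTG or GCGTG), the C/EBP-ATF element (TGATGNAA), the CRE (TGACGTCA), the E-box (CACGTG), the NRF1 element (GCGC, any base, then TGCGC) and the element of estrogen-related receptors (TCAAGGTCA). RefSeq promoter entries were found for 9 of the 10 genes, all but Bnip3l. The Bnip3 window, 72.4% G and C, held 5 matches of the hypoxia core, of which 2 lie inside the E-box at -108 and 1 inside the NRF1 element at -120. Opa1 held the NRF1 element once, at -59, and Fis1 held no match. Single hypoxia core matches stood at -47 in Pink1, -145 in Bcl2l13 and -171 in Mfn2, and Pink1 also held an NRF1 element at -10. Of 32841 RefSeq promoter windows of the same length, 38.6% held the hypoxia core, 6.02% the E-box and 3.74% the NRF1 element. A match describes letters and not binding, and no match says only that these letters are not in the window.

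Per unit of length, Pink1 was the most abundant of the 10 and Bcl2l13 the least in each of the 4 groups. In WT with PBS the FPKM level was 69.9 ± 3.77 (SD, n = 3) for Pink1, 40.9 ± 1.33 for Fis1 and 38.2 ± 0.770 for Bnip3l. Next came a group of genes close in level, Mfn2 at 25.0 ± 0.715 FPKM, Dnm1l at 24.2 ± 2.03, Fundc1 at 24.0 ± 0.176 and Mfn1 at 23.4 ± 0.358. The range of Dnm1l overlapped those of Mfn2, Fundc1 and Mfn1, and Mfn2 overlapped Fundc1, while Mfn1 lay below Mfn2 and Fundc1. Bnip3 followed at 17.1 ± 0.783 FPKM, Opa1 at 11.9 ± 0.331 and Bcl2l13 at 6.46 ± 0.237. With MPP+ in WT, Fis1 moved from the second place to the fourth at 24.3 ± 0.419 FPKM, within the range of Mfn2, and Opa1 passed Fundc1 and Bnip3 to 15.9 ± 0.947, within the range of Fundc1. KO with PBS had Fis1 second at 45.4 ± 1.99 FPKM, and KO with MPP+ had it at 27.2 ± 1.10, overlapping Mfn2. In mean CPM over all libraries the 10 genes lay above 70.9% to 94.8% of tested genes, far over the filter on low counts.

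The first question was what MPP+ did to these genes in WT astrocytes. Fis1, Bnip3, Fundc1, Bnip3l, Pink1 and Mfn1 fell and Opa1 and Bcl2l13 rose, while Mfn2 and Dnm1l did not pass the test. Thus 8 of 10 were called, 2 higher and 6 lower, where 55.2% of all tested genes were called, 26.8% higher and 28.4% lower. Called sizes ran from 0.22 to 0.79 on the log2 scale in WT, where the median size over all genes was 0.66. The median log2 fold change was -0.23 over the 10 genes and -0.04 over all genes. In KO the same comparison called 6 of 10, 2 higher and 4 lower, against 47.7% of all genes, with 23.1% higher and 24.7% lower. The libraries of the 2 treatments did not overlap for 8 of the 10 genes in each genotype, where 62.9% of all genes in WT and 59.0% in KO did not. Both genotypes shared 5 called genes, all in the same direction, namely Opa1, Bcl2l13, Fis1, Bnip3l and Fundc1. The share of all tested genes called in both genotypes was not counted, so these 5 have no background to be set against. The plot of CPM by group and the plot of log2 fold changes show these values.

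**Figure D1:**
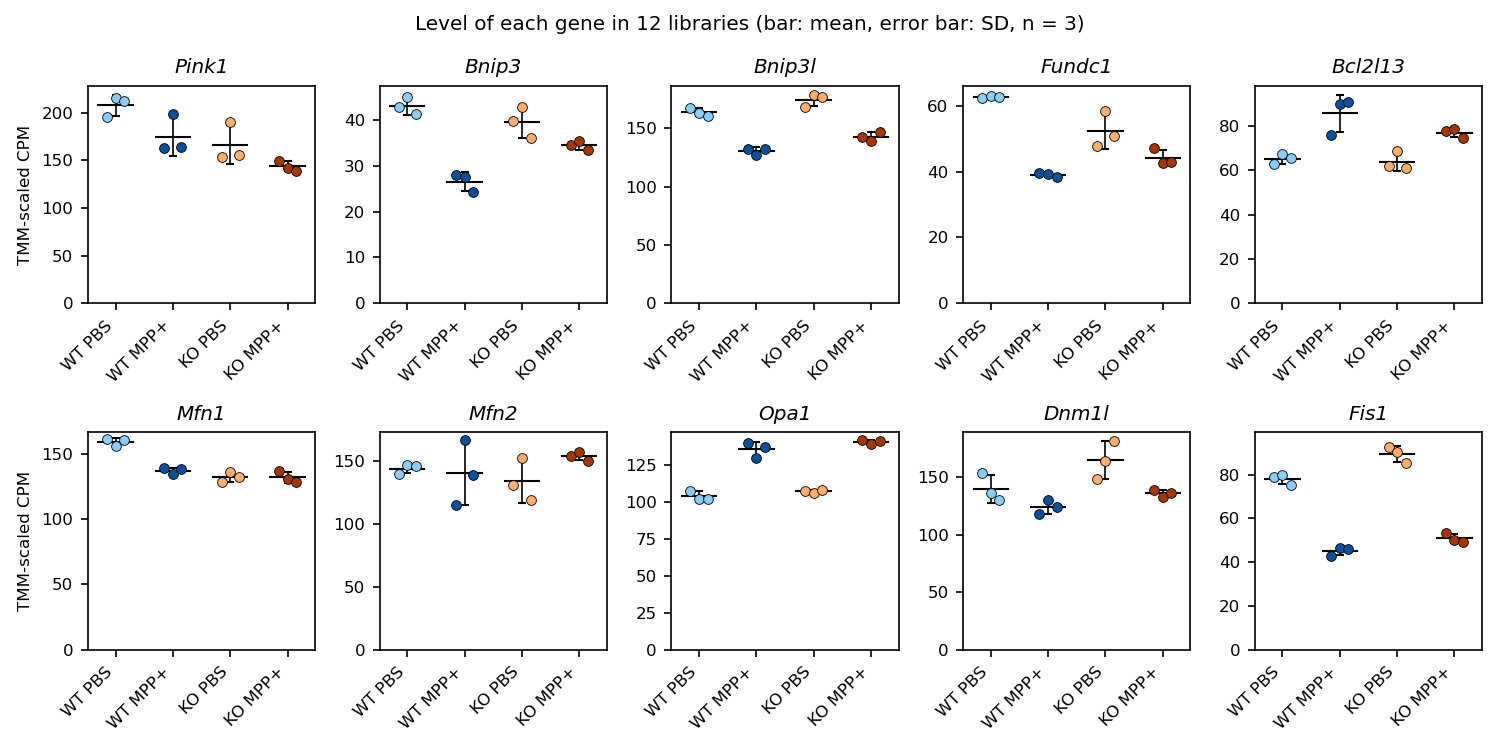
Level of each of the 10 genes in CPM with TMM-scaled library sizes (vertical axes, linear from 0) in the 4 groups. Points are libraries, horizontal bars are means and error bars are SD (n = 3). Fis1 sits between 42.9 and 53.3 CPM in the MPP+ libraries and between 75.1 and 92.8 in the PBS libraries.

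Pink1, the kinase that opens the ubiquitin arm, lies on chr4:138313409-138326307 (GRCm38, minus strand). Its level was 195, 215 and 212 CPM in WT with PBS and 162, 198 and 164 in WT with MPP+, and it was 153, 189.9 and 156 in KO with PBS and 149, 142 and 139 in KO with MPP+. The ranges overlapped in WT, where MPP+ replicate 2 lay above PBS replicate 1, and did not overlap in KO. The fall in WT was -0.25 ± 0.096 (log2 fold change ± SE, adjusted p = 0.0473), just inside the threshold, and it was no longer called in 7 of the 12 fits without 1 library, with adjusted p up to 0.151. These left out WT with PBS replicate 2 or 3, WT with MPP+ replicate 1 or 3, or any KO library with MPP+. Without WT with MPP+ replicate 1 it was -0.20 (adjusted p = 0.141). In KO the value was -0.21 ± 0.096 (adjusted p = 0.0917), which was not called, and it was -0.09 (adjusted p = 0.438) without KO with PBS replicate 2.

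Among the receptors, Bnip3 and Bnip3l encode related outer-membrane proteins known as targets of hypoxia signalling. Bnip3 (chr7:138890836-138909519, minus strand) was at 42.7, 44.9 and 41.2 CPM in WT with PBS and at 27.9, 27.5 and 24.2 in WT with MPP+. All MPP+ libraries lay below all PBS libraries, a fall of 38.2% or -0.69 ± 0.081 on the log2 scale (adjusted p = 1.96e-05). In KO, Bnip3 was at 39.7, 42.8 and 36.0 CPM with PBS and at 34.6, 35.5 and 33.5 with MPP+. These ranges did not overlap either, but the gap was smaller, -0.20 ± 0.080 (95% interval -0.37 to -0.02, adjusted p = 0.0657), and was not called. Without KO with PBS replicate 3, the lowest of its group, it was -0.24 and called (adjusted p = 0.0391), and without KO with PBS replicate 2, the highest, it was -0.12 (adjusted p = 0.301).

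Bnip3l (chr14:66985239-67008877, minus strand) was at 168, 163 and 161 CPM in WT with PBS and 132, 127 and 132 with MPP+, and at 168, 178 and 177 in KO with PBS and 143, 139 and 147 with MPP+. MPP+ lay below PBS in every library of both genotypes. The log2 fold changes were close, -0.33 ± 0.046 in WT (adjusted p = 9.15e-05) and -0.29 ± 0.046 in KO (adjusted p = 0.000337), and both were called with any single library left out.

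Fundc1, a receptor linked to hypoxia and to contacts between mitochondria and the endoplasmic reticulum, lies on chrX:17556564-17572325 (minus strand). In WT it was at 62.5, 63.1 and 62.7 CPM with PBS and at 39.6, 39.3 and 38.4 with MPP+, with replicates close together, and fell by 37.7% (-0.68 ± 0.074, adjusted p = 1.16e-05). In KO it was at 47.9, 58.4 and 50.9 CPM with PBS and at 47.1, 42.7 and 42.8 with MPP+, with the ranges apart by less than 1 CPM. The fall in KO was -0.24 ± 0.074 (adjusted p = 0.0174), and it was not called without KO with PBS replicate 2 or KO with MPP+ replicate 2 or 3, with adjusted p up to 0.103, and it was -0.14 without the first of these. Fitted with genotype and replicate number as a block, it was not called (adjusted p = 0.0533). Of the 706 X-linked genes tested, 37.7% fell in WT and 33.4% in KO, against 28.1% and 24.3% of autosomal genes, and their median was -0.21 in WT against -0.03.

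Bcl2l13, a receptor also described as a counterpart of the yeast receptor Atg32, was the receptor that rose. Its level (chr6:120836212-120892842, plus strand) was 62.7, 67.2 and 65.7 CPM in WT with PBS and 76.1, 90.1 and 90.8 with MPP+, and 61.9, 69.0 and 60.9 in KO with PBS and 77.9, 78.7 and 74.6 with MPP+. No MPP+ library reached down to a PBS library of its genotype. The rise was 0.39 ± 0.076 in WT (adjusted p = 0.000932) and 0.27 ± 0.076 in KO (adjusted p = 0.0117). Without both KO libraries numbered 1, an alternative chosen after seeing the data, the KO value was 0.26 and not called (adjusted p = 0.0628). Bid, on the opposite strand, overlaps the last 913 bases of Bcl2l13 and rose by 1.70 ± 0.072 in WT and 1.56 ± 0.072 in KO. Whether counting used strand is not given in the sources used here, so reads of the 2 genes cannot be told apart there.

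The fusion genes moved in different directions. Opa1, the inner-membrane fusion GTPase (chr16:29579334-29654884, plus strand), was at 108, 102 and 102 CPM in WT with PBS and 139.7, 130.1 and 137 with MPP+, and at 107, 106 and 108 in KO with PBS and 142, 139 and 141 with MPP+. Every MPP+ library lay above every PBS library, whatever the genotype. The rise was 0.38 ± 0.046 in WT (adjusted p = 2.47e-05) and 0.39 ± 0.046 in KO (adjusted p = 2.78e-05), and the difference between the 2 was 0.01 with a 95% interval from -0.13 to 0.15.

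Mfn1, an outer-membrane fusion GTPase (chr3:32529465-32579239, plus strand), was at 161, 156 and 161 CPM in WT with PBS and at 139, 134 and 138 with MPP+. It fell in WT by 0.22 ± 0.045 on the log2 scale (adjusted p = 0.00161) with no overlap. In KO, at 128, 136 and 132 CPM with PBS and 137, 131 and 129 with MPP+, the ranges overlapped, and the value was -0.00 (95% interval -0.10 to 0.10, adjusted p = 0.978).

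Mfn2, the other outer-membrane fusion GTPase, which also tethers mitochondria to the endoplasmic reticulum (chr4:147873599-147904704, minus strand), was the gene called in neither genotype. It was at 139.7, 147 and 146 CPM in WT with PBS and at 116, 167 and 139 with MPP+, so the MPP+ libraries spread to both sides of the PBS range. The WT value was -0.04 (95% interval -0.30 to 0.22, adjusted p = 0.805), and it turned to 0.08 without MPP+ replicate 1, the lowest library. In KO it was at 131, 152 and 119 CPM with PBS and 154, 157 and 150.4 with MPP+, a value of 0.20 (95% interval -0.06 to 0.46, adjusted p = 0.19).

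Fis1 had the largest change of the 10 in both genotypes. It encodes a small tail-anchored protein of the outer membrane, which served as the fission adaptor in yeast and has a debated part in mammalian fission. Its level (chr5:136953275-136966232, plus strand) was 79.1, 79.6 and 75.1 CPM in WT with PBS and 42.9, 46.6 and 46.0 with MPP+, and 92.8, 90.1 and 85.3 in KO with PBS and 53.3, 49.9 and 49.3 with MPP+. MPP+ and PBS libraries were far apart in both. The fall was 42.1% in WT (-0.79 ± 0.058, adjusted p = 5.16e-07) and 43.1% in KO (-0.81 ± 0.058, adjusted p = 5.97e-07), and it was called in every fit without 1 library.

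Dnm1l, the GTPase that constricts mitochondria (chr16:16312230-16358959, minus strand), was at 153, 136 and 131 CPM in WT with PBS and 118, 130.2 and 124 with MPP+. The WT ranges were adjacent without overlap, and the value was -0.17 ± 0.080 (95% interval -0.35 to 0.00, adjusted p = 0.0882), not called. It was called without WT with PBS replicate 3 (adjusted p = 0.0387) and without KO with PBS replicate 1 (0.0359) or 3 (0.0375). In KO it was at 149, 164 and 181 CPM with PBS and 139, 133 and 136 with MPP+, a fall of -0.28 ± 0.080 (adjusted p = 0.0136). Without KO with PBS replicate 3, the highest library, the KO value was -0.19 and not called (adjusted p = 0.0784).

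**Figure D2:**
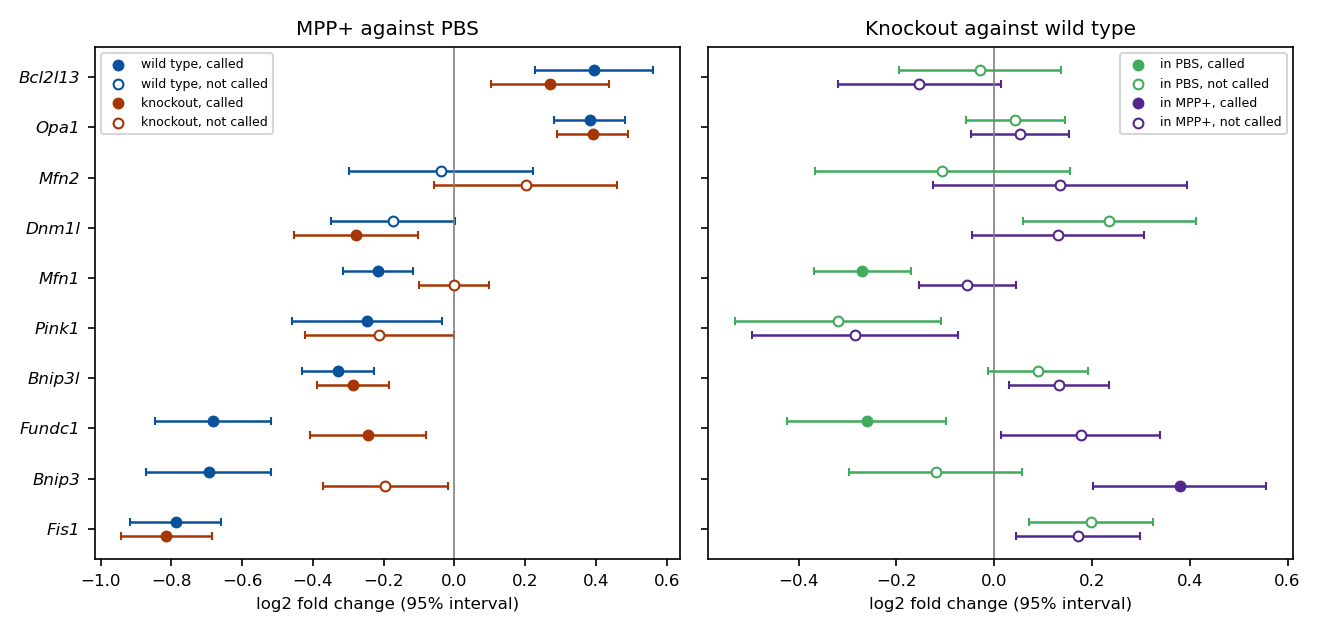
Log2 fold changes of the 10 genes (horizontal axes) with 95% intervals, for MPP+ against PBS in each genotype (left) and KO against WT in each treatment (right). Filled points passed an adjusted p of 0.05 and open points did not. Opa1 and Fis1 have nearly the same MPP+ effect in both genotypes, while Bnip3 stands at -0.69 in WT and -0.20 in KO, a difference that was not called (adjusted p = 0.0604).

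As ratios of FPKM within a library, Opa1 over Fis1 was 0.296, 0.280 and 0.296 in WT with PBS and 0.709, 0.608 and 0.650 with MPP+, and 0.252, 0.257 and 0.276 in KO with PBS and 0.579, 0.607 and 0.624 with MPP+. The MPP+ libraries of both genotypes thus held ratios above every PBS library. The ratio of Dnm1l to Fis1 was 0.591 ± 0.0412 (SD, n = 3) in WT with PBS and 0.905 ± 0.0151 with MPP+, and 0.610 ± 0.0867 in KO with PBS and 0.881 ± 0.0270 with MPP+. Bnip3l over Bnip3 was 2.24 ± 0.0933 in WT with PBS and 2.90 ± 0.271 with MPP+, while in KO it was 2.60 ± 0.240 with PBS and 2.44 ± 0.140 with MPP+, where the ranges overlapped. Mfn2 over Mfn1 was 1.07 ± 0.0441 in WT with PBS and 1.21 ± 0.240 with MPP+, which overlapped, and 1.19 ± 0.133 in KO with PBS and 1.37 ± 0.0430 with MPP+. These pairs were chosen with results known and are given as a description.

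**Figure D3:**
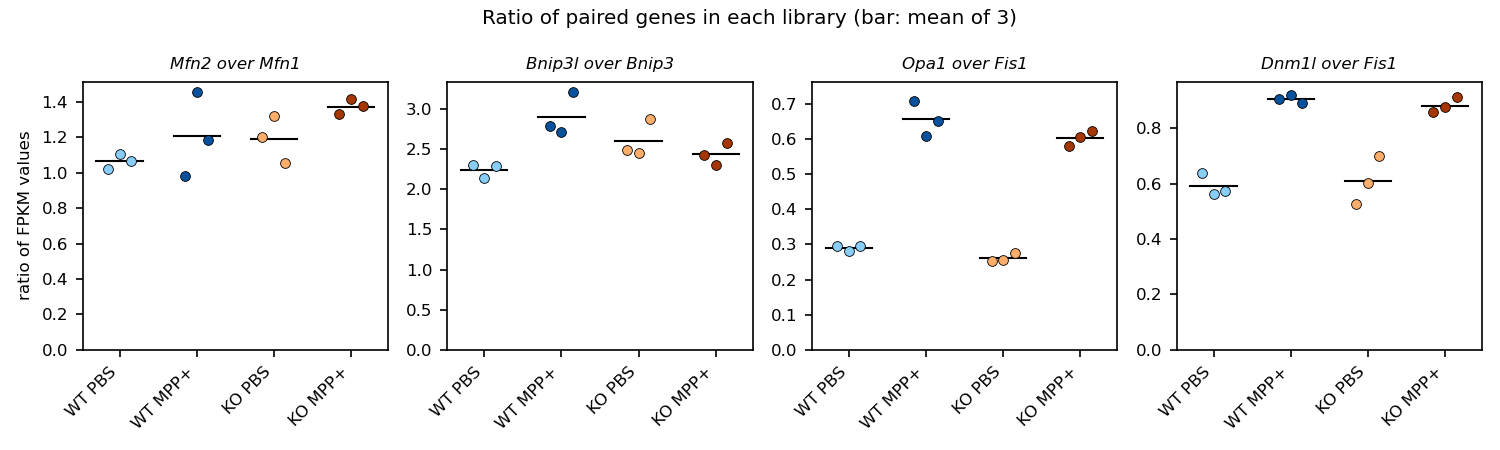
Ratios of FPKM between paired genes (vertical axes, linear from 0) in each library of the 4 groups, with bars at the mean of 3. Opa1 over Fis1 lies between 0.252 and 0.296 in all PBS libraries and between 0.579 and 0.709 in all MPP+ libraries.

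Other genes of the same pathways were taken from fixed lists. Of all tested genes, 26.8% rose and 28.4% fell with MPP+ in WT, and 23.1% rose and 24.7% fell in KO. These shares apply to the MPP+ counts of every list below. Of 14 genes of the ubiquitin arm, 7 rose and 4 fell with MPP+ in WT, and 6 rose and 4 fell in KO. Their median log2 fold change was 0.32 and 0.20, where the median of all genes was -0.04 in both. Usp15, a deubiquitinase that opposes mitophagy, went from 61.9 ± 0.764 to 113 ± 7.16 CPM in WT (0.87 ± 0.057) and from 66.0 ± 1.64 to 105 ± 4.12 in KO (0.67 ± 0.056). Usp30, a deubiquitinase of the outer membrane, rose by 0.34 ± 0.068 in WT and 0.35 ± 0.068 in KO. The mitochondrial ubiquitin ligases Mul1 and March5 rose as well, by 0.46 ± 0.12 and 0.50 ± 0.064 in WT and by 0.40 ± 0.12 and 0.36 ± 0.064 in KO. Without WT with PBS replicate 2, Mul1 rose by 0.29 in WT, and without both KO libraries numbered 1 its KO value was 0.41 and not called (adjusted p = 0.0662).

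Rhot2, a GTPase that ties mitochondria to transport motors, fell most of the ubiquitin arm in WT, from 30.7 ± 3.72 to 16.2 ± 2.94 CPM (-0.92 ± 0.13), and fell in KO too (-0.53 ± 0.13). Its relative Rhot1 rose in WT by 0.38 ± 0.097 and was at -0.09 ± 0.097 in KO, not called (adjusted p = 0.469). Without KO with PBS replicate 1 the KO value of Rhot1 was -0.20 and called (adjusted p = 0.0352), and over all fits without 1 library it ran from -0.20 to -0.0094. Vdac1, an outer-membrane channel for metabolites, fell by 0.51 ± 0.044 in WT and 0.60 ± 0.044 in KO.

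Among 11 other receptors and adaptors, 6 rose and 1 fell in each genotype, with medians of 0.18 in WT and 0.31 in KO. Sqstm1, an autophagy adaptor that binds ubiquitin, went from 407 ± 6.71 to 735 ± 49.3 CPM in WT (0.85 ± 0.051) and from 444 ± 2.80 to 900.0 ± 8.34 in KO (1.02 ± 0.051). Optn, an autophagy adaptor that binds ubiquitin and that Tbk1 phosphorylates, rose by 0.89 ± 0.092 and 0.75 ± 0.091. Ambra1 and Nlrx1, both described as mitophagy receptors, rose by 0.58 ± 0.069 and 0.64 ± 0.10 in WT and by 0.43 ± 0.069 and 0.58 ± 0.10 in KO. Nipsnap2, a matrix protein that marks damaged mitochondria, was the one that fell, by 0.35 ± 0.074 in WT and 0.42 ± 0.074 in KO. Fkbp8, a receptor of the outer membrane, was at 0.02 ± 0.059 in WT and 0.12 ± 0.059 in KO, neither called.

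Of 16 further genes listed under fission, 11 rose and 1 fell in WT, and 12 rose and 2 fell in KO. Their median was 0.66 in both. The list does not sort genes that promote fission from those that restrain it. Over all tested genes, 26.8% rose and 28.4% fell in WT, and 23.1% rose and 24.7% fell in KO. Akap1, an anchor that brings protein kinase A to the outer membrane, rose most in WT, from 36.2 ± 0.265 to 91.4 ± 12.2 CPM (1.34 ± 0.086), and in KO from 32.1 ± 1.64 to 69.7 ± 2.11 (1.12 ± 0.085). Of the adaptors that recruit Dnm1l, Mief1 rose by 0.93 ± 0.074 in WT and 0.79 ± 0.074 in KO, and Mff by 0.41 ± 0.10 and 0.34 ± 0.10. The actin regulator Inf2 rose by 1.08 ± 0.086 and 0.69 ± 0.085, the SUMO protease Senp5 by 1.11 ± 0.093 and 0.79 ± 0.092, and Mtfr1 by 0.96 ± 0.060 and 0.72 ± 0.060. Mtfr2, a scarce relative of Mtfr1, fell from 4.15 ± 0.352 to 0.772 ± 0.216 CPM in WT and from 4.45 ± 0.739 to 0.598 ± 0.273 in KO.

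Of 11 genes of fusion and Opa1 processing, 3 rose and 2 fell in WT and 4 rose and 2 fell in KO, with medians of -0.12 and -0.00. The inner-membrane proteases Afg3l2 and Oma1, the latter of which cuts Opa1 under stress, rose by 0.74 ± 0.052 and 0.27 ± 0.073 in WT and by 0.59 ± 0.052 and 0.19 ± 0.073 in KO, where Oma1 was just called (adjusted p = 0.0475). Oma1 was not called in WT without WT with PBS replicate 1 (adjusted p = 0.0581), nor in KO in 8 of 12 fits without 1 library, all but those without WT with PBS replicate 1 or 3, WT with MPP+ replicate 1 or KO with PBS replicate 2. Slc25a46, an outer-membrane carrier relative that binds fusion proteins, rose by 0.64 ± 0.064 and 0.69 ± 0.064. Miga2, which acts with the mitofusins, fell by 0.66 ± 0.11 in WT and 0.51 ± 0.10 in KO. Pld6, a phospholipase of the outer membrane, fell from 0.973 ± 0.329 to 0.0308 ± 0.0533 CPM in WT and from 1.05 ± 0.0631 to 0.129 ± 0.177 in KO, at counts too low to size the fold. In KO the call on Pld6 was lost in 7 of 12 fits without 1 library (adjusted p up to 0.105), those without WT with PBS replicate 2 or 3, any KO library with PBS, or KO with MPP+ replicate 1 or 3. It was also lost without a filter (adjusted p = 0.0575) and without both KO libraries numbered 1 (adjusted p = 0.155).

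**Figure D4:**
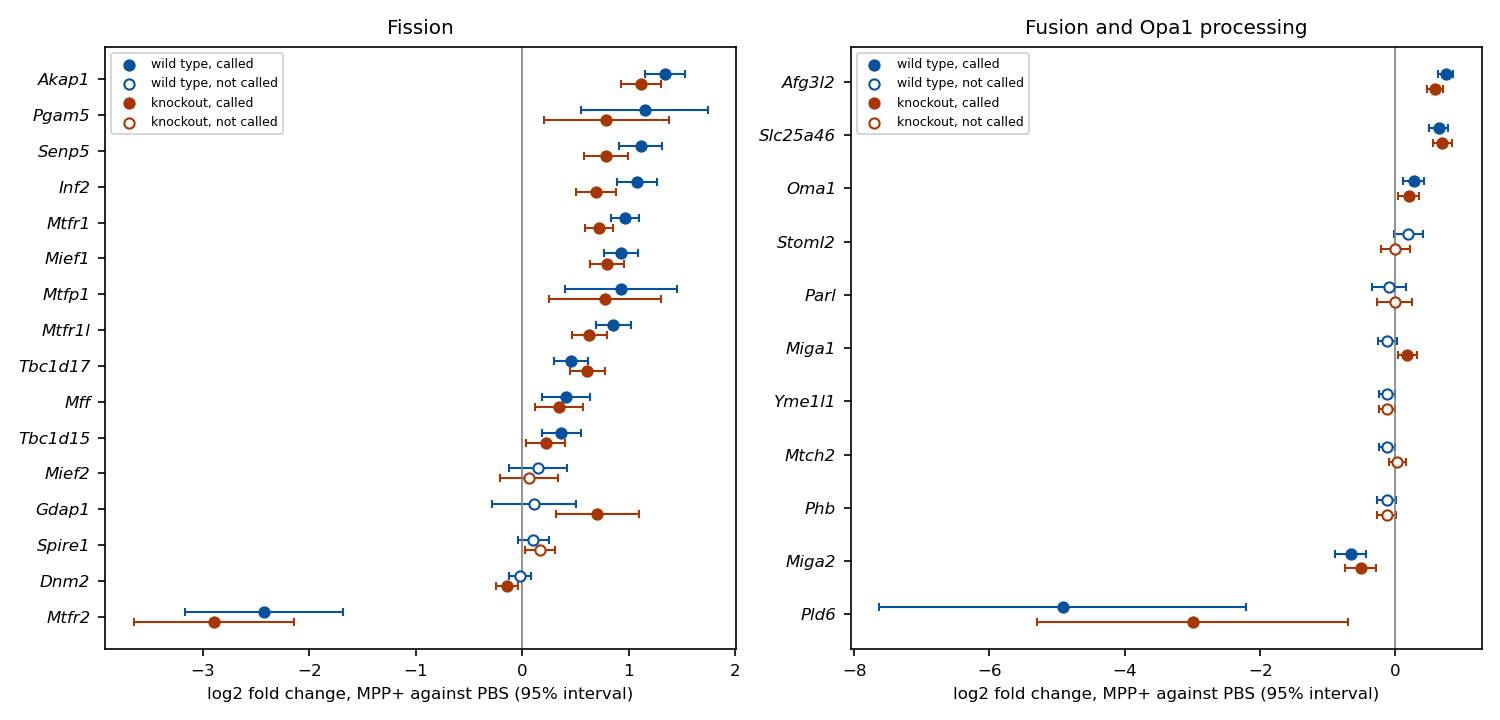
Log2 fold changes of MPP+ against PBS (horizontal axes) with 95% intervals for 16 genes listed under fission (left) and 11 of fusion and Opa1 processing (right). Points are blue in WT and red in KO, filled where called. Genes listed under fission, whether they promote or restrain it, lie mostly to the right of 0, with 11 called higher in WT and 12 in KO. Of all tested genes, 26.8% were called higher in WT and 23.1% in KO.

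Bnip3 and Bnip3l are known hypoxia targets, and 10 others of that class were listed. In WT 2 rose and 5 fell, and in KO 1 rose and 5 fell, with medians of -0.13 and -0.48. Vegfa, the angiogenic factor, rose most, from 42.3 ± 1.87 to 292 ± 22.7 CPM in WT (2.79 ± 0.070) and from 53.5 ± 1.96 to 246 ± 11.7 in KO (2.20 ± 0.068). Egln3, an oxygen sensor, fell by 1.27 ± 0.11 in WT and 0.63 ± 0.11 in KO, and Pdk1 and Higd1a, a kinase of pyruvate oxidation and a protein of the respiratory chain, fell by 0.90 ± 0.14 and 0.84 ± 0.12 in WT. The hypoxia factor gene Hif1a rose by 0.95 ± 0.062 and 0.84 ± 0.062, and Epas1, its relative, fell by 2.49 ± 0.097 and 2.04 ± 0.096.

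Among 14 transcription factor genes, 9 rose and 2 fell in each genotype, with medians of 0.62 in WT and 0.40 in KO. Ddit3, a factor of the integrated stress response, went from 22.8 ± 1.36 to 498 ± 48.5 CPM in WT and from 26.0 ± 2.25 to 482 ± 47.1 in KO. Its partner Atf4 rose by 1.75 ± 0.16 and 1.69 ± 0.16. The 12 genes of household mitochondrial proteins were mixed, as 3 rose and 3 fell in WT, and 3 rose and 5 fell in KO. Among them the chaperone Hspd1 rose by 0.82 ± 0.057 and 0.88 ± 0.057, and citrate synthase, Cs, fell by 0.46 ± 0.052 and 0.67 ± 0.052. The shares over all tested genes were 26.8% higher and 28.4% lower in WT, and 23.1% higher and 24.7% lower in KO.

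The second question was how the 10 genes differed between KO and WT. In PBS, Mfn1 and Fundc1 were lower in KO, 2 of 10 where 11.0% of all genes were called, 5.34% higher and 5.66% lower. Of all genes called there, 48.6% were higher, against 35.5% with library totals in place of TMM. The genotypes did not overlap for 5 of the 10, where 33.8% of all genes did not. Mfn1, at 159 ± 2.82 CPM in WT and 132 ± 3.77 in KO, was lower by a log2 fold change of -0.27 ± 0.045 (adjusted p = 0.00396), and it was called with any library left out and without both KO libraries numbered 1. Fundc1, at 62.8 ± 0.297 CPM in WT and 52.4 ± 5.40 in KO, was at -0.26 ± 0.074 (adjusted p = 0.0444), and 9 of 12 fits without 1 library did not call it, with adjusted p up to 0.131. The fits that did call it left out WT with MPP+ replicate 1, KO with PBS replicate 2 or KO with MPP+ replicate 1. Without both KO libraries numbered 1 it was -0.21 and not called (adjusted p = 0.131). Fundc1 is X-linked, and 4.67% of 706 X-linked genes were lower in KO against 5.70% of autosomal genes. Cell type markers also differed between genotypes in PBS. Summed fibroblast markers were at 657 to 1430 CPM in WT and 1567 to 1883 in KO, and of 7, 1 was higher and 1 lower. Of 13 astrocyte markers 4 were lower and 0 higher in KO, and of 11 microglia and macrophage markers 2 were lower and 0 higher. Of 6 tested pericyte and smooth muscle markers 2 were higher and 0 lower, and of 7 tested neuron markers 2 and 0. Oligodendrocyte lineage markers had 2 higher and 2 lower of 9 tested, endothelium 1 and 1 of 4, and ependyma and choroid plexus 0 and 2 of 4. The part of these markers in the Mfn1 and Fundc1 differences was not tested.

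Of the 8 genes not called in PBS, Fis1 was nearest the threshold, at 0.20 (95% interval 0.07 to 0.32, adjusted p = 0.0508), followed by Pink1 at -0.32 (-0.53 to -0.11, adjusted p = 0.0557) and Dnm1l at 0.24 (0.06 to 0.41, adjusted p = 0.0876). The rest had values between -0.12 and 0.09, with adjusted p from 0.271 to 0.879. Intervals of -0.30 to 0.06 for Bnip3 and -0.37 to 0.15 for Mfn2 include a difference as large as that of Mfn1.

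With MPP+, Bnip3 was higher in KO, 1 of 10 where 16.9% of all genes were called, 7.87% higher and 9.00% lower. For 6 of the 10 the genotypes did not overlap, where 33.9% of all genes did not. All KO libraries, 33.5 to 35.5 CPM, lay above all WT libraries, 24.2 to 27.9 CPM, and the log2 fold change was 0.38 ± 0.081 (adjusted p = 0.00938). It was 0.40 without both KO libraries numbered 1 (adjusted p = 0.0378). The 9 others ran from -0.28 for Pink1 (adjusted p = 0.065) to 0.18 for Fundc1 (adjusted p = 0.13), none called. Cell type markers moved with genotype too. Of 7 fibroblast markers 5 were higher and 1 lower in KO with MPP+. Their summed level was 872 to 1260 CPM in WT and 1698 to 2213 in KO, none at 0. Of 6 tested pericyte and smooth muscle markers 3 were higher and 0 lower, and of 9 oligodendrocyte lineage markers 3 and 0. Of 13 astrocyte markers 3 were higher and 2 lower, of 11 microglia and macrophage markers 0 and 3, and of 7 neuron markers 2 and 0. Of 4 endothelium markers 1 was higher and 0 lower, and of 4 ependyma and choroid plexus markers 0 and 1. The part of these markers in the Bnip3 difference was not tested.

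Of all tested genes, 5.34% were higher and 5.66% lower in KO with PBS, and 7.87% were higher and 9.00% lower with MPP+. Of the wider lists, the ubiquitin arm had 1 of 14 genes called in PBS, Rhot1, which was higher in KO (0.38 ± 0.097, adjusted p = 0.0277). In MPP+, 1 of these 14 and 1 of 11 genes of fusion and Opa1 processing were higher in KO. Also in MPP+, 1 of 16 genes listed under fission was called, Akap1, which was lower in KO (-0.39 ± 0.084, adjusted p = 0.00997). Of the 11 other receptors and adaptors, 2 were higher and 1 lower in KO with MPP+, and Sqstm1 was among the higher (0.29 ± 0.051, adjusted p = 0.00362). Of the 10 hypoxia targets, 2 were higher and 3 lower in KO with PBS, and 1 was higher and 2 lower with MPP+. Of 14 tested transcription factor genes, 2 were higher and 1 lower with PBS, and 0 and 3 with MPP+. Household mitochondrial genes had 2 of 12 higher and 0 lower with PBS, and 1 and 0 with MPP+. The genotype differences of Rhot1, Akap1 and Sqstm1 were not run under the alternative settings.

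The last question was whether the MPP+ effect differed between genotypes, tested as an interaction. None of the 10 genes was called by edgeR, where 1.35% of all genes were, although 3 had an unadjusted p under 0.05, as did 17.5% of all genes. These were Bnip3, whose effect was less negative in KO by 0.50 ± 0.11 (95% interval 0.25 to 0.75, adjusted p = 0.0604), Fundc1, by 0.44 ± 0.10 (0.21 to 0.67, adjusted p = 0.0676), and Mfn1, by 0.21 ± 0.064 (0.07 to 0.36, adjusted p = 0.119). DESeq2 called all 3, with adjusted p of 0.00149, 0.00276 and 0.00667, and limma on log2(FPKM + 1) called 2 genes. Of all 21129 genes, DESeq2 called 1407 and this limma fit 422, where the main edgeR fit called 285. With edgeR, leaving out WT with MPP+ replicate 1 called Bnip3 (0.54, adjusted p = 0.0255) and Fundc1 (0.45, adjusted p = 0.0417). That fit called 1553 of 21898 genes in all. Leaving out KO with PBS replicate 2 called the same pair (0.60, adjusted p = 0.0361, and 0.56, adjusted p = 0.0195), and 394 of 21839 genes in all. The other 7 had adjusted p from 0.505 to 0.971, and the interval of Mfn2, -0.13 to 0.61, was the widest. In the wider lists Vegfa and Trp53, the p53 gene, were called.

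Over the 12 samples, the genes whose profile was most like a called one were named by the root-mean-square difference of log2 level centred on each gene's mean, among 10565 genes of at least 10 CPM. Opa1 was nearest to Etf1, a translation termination factor, at 0.0331, and to Tmed7 and Mtrex. Fis1 was nearest to Eloc at 0.0628, Atp5g3, a subunit of ATP synthase, at 0.0696, and Cpt1a, the enzyme of fatty acid entry into mitochondria, at 0.0736. Bnip3l was nearest to Ddb1 at 0.0491, followed by Lars2 and Acad9, Fundc1 to Mipep at 0.0663, and Bcl2l13 to the RNA helicase gene Ddx17 at 0.0386. Within the 10 genes, the closest profiles were those of Bnip3l and Dnm1l at 0.0995, Bnip3 and Fundc1 at 0.116, and Bcl2l13 and Opa1 at 0.126. These distances share the treatment and the libraries and are a description.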

How the data were processed

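RNA had been sequenced from 12 samples, 3 in each of 4 groups, from TRIzol total RNA with a SMARTER mRNA kit, per the labels' protocols. The builds GRCm38 and mm10 are named in the submitters' processing notes, while aligner, counting tool and use of strand were not given in the sources used here. Raw counts and FPKM, both produced by the authors and named in the headers of their deposited file, cover 32742 genes, for which starts matched GENCODE release M21 throughout.

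A quasi-likelihood model of edgeR 4.0.16 (R 4.3.3, package version 1.17.8 of data.table) was fitted to the counts, with filterByExpr (minimum count 10, total 15), TMM scaling and 1 mean per group over 12 samples, which left 8 residual degrees of freedom. Calls needed a two-sided Benjamini-Hochberg adjusted p below 0.05 over the 21129 genes tested. Errors of log2 fold changes are SE taken from the F statistic, and intervals are at 95%. CPM use TMM-scaled totals. Medians over all genes moved by less than 0.1 under every scaling tried. DESeq2 1.42.0, limma 3.58.1 on log2(FPKM + pseudocount of 1 or 0.1), other scalings, filters and left-out libraries were alternatives. The scripts were tested on simulated data.

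The 10 genes and the lists were chosen with earlier results of these data known. The text names all 10, and of each of the 7 wider lists the called genes with the largest rise and fall in WT, commonly cited genes and those called in the interaction. An item of the lists is not reported here by name. Mief1, Mtfr1, Inf2, Sqstm1, Slc25a46, Miga2, Mul1, March5, Ambra1, Rhot1, Senp5, Nlrx1, Cs, Higd1a, Pdk1 and Bid were chosen after their values were seen. All 165 list symbols were matched to the table, and 1 of them, Ddit3, matched 2 entries. The values given for Ddit3 are those of the entry that passed the filter on low counts. The other was at most 0.295 CPM in any library. No pair of libraries was identical.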

Additional observations from a re-analysis of the deposited data

Results flagged for a closer look

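Of the wider lists, 2 genes had an MPP+ effect that differed between genotypes by the interaction test of edgeR. For Trp53, the p53 gene, the effect in KO minus that in WT was -0.43 on the log2 scale (adjusted p = 0.0163), with a rise of 0.80 ± 0.048 in WT and 0.36 ± 0.047 in KO. For Vegfa the difference was -0.58 (adjusted p = 0.0182). Both rose in both genotypes. Neither was called when genotype and replicate number were fitted together as a block (adjusted p = 0.0843 for Trp53 and 0.0871 for Vegfa) or without both KO libraries numbered 1 (adjusted p = 0.116 and 0.0925). Without 1 library at a time, Trp53 was not called in 5 of 12 fits, those without any WT library with PBS or without KO with PBS replicate 1 or 3. Vegfa was not called in 3 of 12, those without WT with PBS replicate 2 or 3 or KO with PBS replicate 3.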

How the results depend on the processing

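The MPP+ effects were run under 24 alternative settings and the others under 23, and 26 of the 50 effects of the 10 genes kept their direction and their side of the threshold in all that were run. The MPP+ effects of Opa1, Fis1 and Bnip3l in both genotypes were among them.

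The number of the 10 genes called in KO against WT in PBS, 2 in the main analysis, was 4 with a minimum count of 50, 4 with DESeq2, 1 with only the 2 groups in the fit and 1 without both KO libraries numbered 1, and 1 to 3 without single libraries. In MPP+, where it was 1, it was 3 with the minimum of 50, 4 with DESeq2, 2 with limma at either pseudocount and 1 to 3 without single libraries. For the interaction, where it was 0, it was 2 with the minimum of 50, 3 with DESeq2, 2 with limma on log2(FPKM + 1) and 0 to 2 without single libraries. Among all genes, the interaction called 285 of 21129, and 148 without a filter, 1407 with DESeq2 and 12 without both KO libraries numbered 1. Without single libraries it called 63 (without WT with PBS replicate 2 or KO with PBS replicate 3) to 1553 (without WT with MPP+ replicate 1). With the minimum of 50 it called 358 of 16671 genes, and with limma on log2(FPKM + 1) 422 of 21129. KO against WT called 3565 in MPP+, 1968 with 2 groups, 1906 without both KO libraries numbered 1 and 2010 to 4746 without single libraries. With the minimum of 50 it called 3760 of 16671 genes there, and with DESeq2 4852 of 21129. Limma called 3514 with a pseudocount of 1 and 3602 with 0.1. In PBS, KO against WT called 2323, 1012 without both KO libraries numbered 1 and 1109 to 2753 without single libraries. It called 2570 of 16671 genes with the minimum of 50, 3475 of 21129 with DESeq2 and 2428 of 19831 with 2 groups. The causes of these shifts were not tested.

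Deviations of same-numbered samples correlated at -0.019 to 0.060, under the limit of 0.1 for every pair, so the numbers were not taken to pair the samples. As a hint from the data, the 6 correlations within a genotype were all positive, at 0.0078 to 0.052, and 11 of 12 samples correlated best with their own number there, all but WT with MPP+ replicate 3. Both KO libraries numbered 1 also stood apart in Y-linked RNA. With the replicate block, 2 of the 10 genes were called in KO against WT in MPP+ and 1 in the interaction, Bnip3 (adjusted p = 0.0391). Of all 21129 genes, the same block called 3646 and 217. Blocking by genotype and number left 32 interaction calls among all genes.

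Values near 0 turned sign. Fkbp8 in WT was -0.0022 with RLE factors and with DESeq2, -0.013 without a filter, -0.0080 with the minimum of 50, -0.0010 without both KO libraries numbered 1 and -0.030 to 0.056 without single libraries. Mfn1 in KO was 0.067 with library totals, 0.017 without a filter, 0.0034 with the minimum of 50, 0.013 with 2 groups, 0.072 and 0.076 with limma and -0.026 to 0.033 without single libraries. Opa1 in KO against WT in PBS was -0.0080 with library totals and -0.0051 and -0.0055 with limma. The Fis1 interaction was 0.0078 with library totals, 0.024 without a filter, 0.0063 with the minimum of 50, 0.011 and 0.013 with limma, 0.0057 without both KO libraries numbered 1 and -0.060 to 0.039 without single libraries. The Pink1 interaction was -0.0098 without both and -0.014 to 0.18 without single libraries, that of Opa1 -0.019 to 0.057 and that of Dnm1l -0.14 to 0.0075. Mfn2 in WT ran from -0.18 to 0.083.

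The 3 samples a group limit the precision. Sex cannot be told apart from genotype.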
